A study of Mus musculus with 8 samples.

Results

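The genes described here are the adipogenic nuclear receptor Pparg (PPARγ) and its close partners: its paralogs Ppard and Ppara, the heterodimer partners Rxra and Rxrb, the liver X receptors Nr1h2 and Nr1h3, the corepressor Ncor1 and the Mediator subunit Med1. They were taken by name, and all 9 were found among 46073 genes in the table of FPKM (fragments mapped to a gene, scaled to its transcript length and to the mapped fragments of the library). RNA-seq was performed on mouse 3T3-L1 preadipocytes (breed given as Swiss albino), a line that turns into adipocytes in a cocktail of dexamethasone, IBMX and insulin. The control line, CR-tdTomato (TOM), carried Cas9 with a guide against tdTomato, a sequence that is foreign to the mouse genome, and the other, CR-Ddx6 (Ddx6-KO), carried Cas9 with a guide against exon 4 of Ddx6, which encodes an RNA helicase of processing bodies. Both lines had received the lentiviral vector lentiCRISPRv2 and puromycin selection and had been through limiting dilution. The sources used here do not give how many clones they stand for, so a difference between clones and an effect of the guide cannot be told apart.

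Each line was sampled at day 0 and at day 2 of induction, with 2 libraries in each of the 4 groups. The treatment note attached to every sample, also to those titled day 0, speaks of harvest 2 days after induction. The note and the titles thus conflict for day 0, and the day was taken from the titles. No label says that libraries within a group were made from different cultures, so the p-values below measure only the spread between these libraries, which may be technical. In bulk RNA, fewer cells that express a gene and less of its RNA per cell cannot be told apart.

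PPARγ is a ligand-activated transcription factor that drives fat cell differentiation and keeps mature adipocytes in their state. It binds DNA with a retinoid X receptor (RXR) as an obligate partner, and the same RXR pool serves PPARδ, PPARα and the liver X receptors (LXR), which sense oxysterols. Without ligand such heterodimers recruit corepressors, NCoR1 among them, and with ligand they recruit coactivators and, through MED1, the Mediator complex that contacts RNA polymerase. During adipogenesis the first-wave factors C/EBPβ and C/EBPδ switch on Pparg, after which PPARγ and C/EBPα keep each other expressed.

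The targeted gene Ddx6 was read at 11.3 and 19.9 FPKM in TOM day 0, 28.8 and 28.4 in TOM day 2, 27.2 and 31.9 in Ddx6-KO day 0, and 50 and 43 in Ddx6-KO day 2. Its RNA was thus not lower in the libraries labelled Ddx6-KO, and a level over the whole gene does not show a small insertion or deletion at the guide site. From the spacing of low FPKM values, the libraries held about 1.4 to 5.33 M fragments each, except TOM day 0 library 1 with about 19.7 M. The 10 most abundant genes took 41.0% to 59.5% of the summed FPKM of a library. Correlations between the libraries of a group, across genes, were 0.888 for Ddx6-KO day 2 and 0.941 to 0.95 for the other groups. The 14 genes of the preadipocyte and fibroblast marker list summed to 1650 to 2490 FPKM per library. Of its 12 tested genes, 2 fell in TOM and 1 rose and 4 fell in Ddx6-KO over the 2 days. Of all genes tested, 7.15% and 10.7% were called in these comparisons. Ddx6-KO minus TOM called 2 higher and 4 lower at day 0, against 11.4% of all genes, and 3 of each at day 2, against 18.9%. The lines thus differed in these markers before induction. The 11 macrophage markers summed to 6.71 to 18.2 FPKM, with 1 of 5 tested lower at day 2 in each line and 1 higher in Ddx6-KO at day 0, and the 9 endothelial, 7 epithelial, 8 skeletal muscle and 8 osteoblast markers stayed at or below 15.4 FPKM in sum. Of the 2 endothelial markers tested, 1 was higher in Ddx6-KO at day 2, Pecam1 (1.48, adjusted p = 0.0235), and no other gene of these 4 lists was called between days or lines. The osteoblast genes Bglap and Bglap2 were listed at 0 in every library. The part of these levels in the results below was not tested.

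Pparg (ENSMUSG00000000440) lies on the forward strand of chromosome 6 from 115360951 to 115490399 (GRCm38) and has 7 annotated transcripts. It overlaps the antisense gene Gm44079. The library kit marked strand, but the sources used here do not give the strand setting of the counting, so reads of these genes may not be fully separated. The gene has several start sites, and the one at 115422066 gives the adipocyte form PPARγ2. Gene-level FPKM do not split PPARγ1 from PPARγ2. The 250 bases before this start (RefSeq, GRCm38.p6, chr6:115421816-115422065, forward strand) are printed because the first-wave C/EBP factors, whose levels follow below, are known to act at Pparg. No base of this window lies in an annotated exon. The capitals mark 2 matches to the C/EBP core TTGCNNAA, at 215 and 16 bases before the start, and 2 CCAAT boxes at 144 and 22, with both strands searched.
Pparg promoter of the PPARγ2 start: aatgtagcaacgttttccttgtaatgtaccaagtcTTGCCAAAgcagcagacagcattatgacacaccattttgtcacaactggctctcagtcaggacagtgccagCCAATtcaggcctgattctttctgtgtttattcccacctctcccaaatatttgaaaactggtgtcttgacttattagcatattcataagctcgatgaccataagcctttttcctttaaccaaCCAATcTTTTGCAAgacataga
A C/EBP core match was present in 9.56% of 32851 promoter windows of the same length and in 2 of the 15 windows of the 9 genes. CCAAT occurred in 33.8% of all windows and in 4 of the 15. A match states only that these letters are present.

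Pparg RNA stood at 19.6 and 14.0 FPKM in TOM day 0 and at 34.6 and 44.0 in TOM day 2. It stood at 2.98 and 4.08 FPKM in the libraries labelled Ddx6-KO at day 0 and at 3.16 and 2.32 in those at day 2. All 4 TOM libraries were above all 4 libraries labelled Ddx6-KO, and the day 2 libraries were above the day 0 libraries in TOM, while the days overlapped in Ddx6-KO. The group means were 16.8 ± 3.93 and 39.3 ± 6.66 FPKM in TOM (SD, n = 2 each) and 3.53 ± 0.773 and 2.74 ± 0.599 FPKM in Ddx6-KO.

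By the ratio of means, Pparg was 4.75-fold higher in TOM than in the libraries labelled Ddx6-KO at day 0 and 14.3-fold higher at day 2. Tests were made with limma on log2(FPKM + 1), which understates the change of genes with low values, and p-values were adjusted over all 15811 genes tested, those that reached 1 FPKM in 2 or more libraries. On this scale Pparg was lower in Ddx6-KO by -1.97 (standard error 0.25, adjusted p = 0.00389) at day 0 and by -3.43 (standard error 0.25, adjusted p = 0.000396) at day 2. Both calls were made under all 21 alternative settings, with adjusted p from 0.00264 to 0.0466 at day 0 and from 0.000132 to 0.0265 at day 2. The day 2 value rests on few reads, since the 2 libraries labelled Ddx6-KO held about 9 and 12 fragments of Pparg against about 169 and 239 in TOM.

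Pparg rose over the 2 days in TOM by 1.19 (standard error 0.25, adjusted p = 0.0297), a ratio of means of 2.34. This call was lost on leaving out any TOM library or either Ddx6-KO library of day 0, where the adjusted p lay between 0.0572 and 0.171 and the difference between 0.96 and 1.41, and under 5 other settings (adjusted p 0.0537 to 0.119). In Ddx6-KO the day 2 minus day 0 difference was -0.28 (95% interval -0.85 to 0.30, adjusted p = 0.532). The change in Ddx6-KO minus that in TOM was -1.46 (standard error 0.35, 95% interval -2.28 to -0.65), with an unadjusted p of 0.00361 from limma and an adjusted p of 0.0669, which misses the threshold of 0.05.

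**Figure D1:**
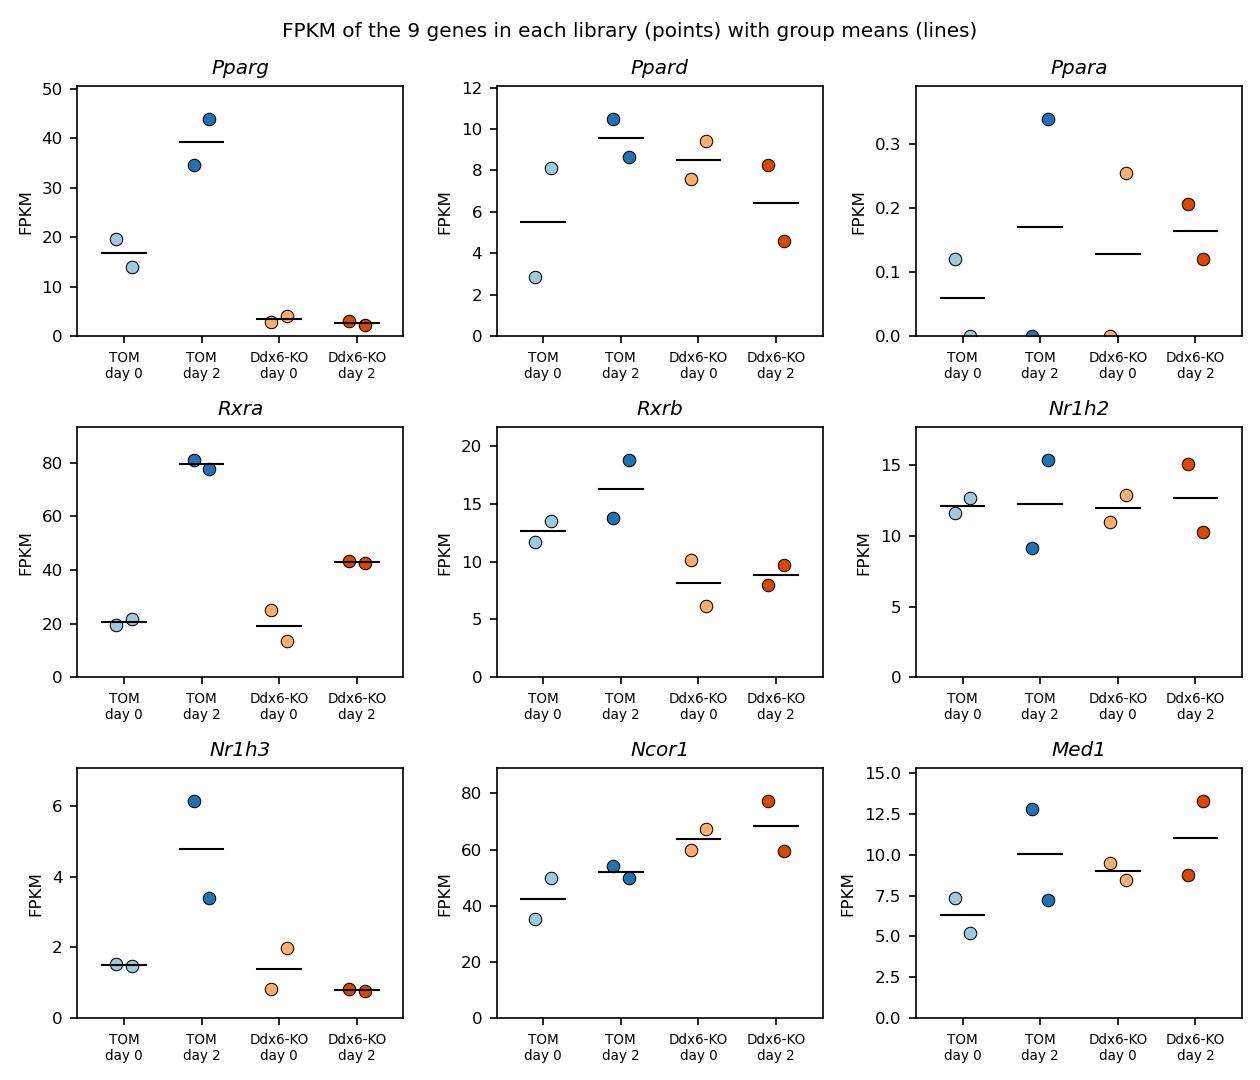
FPKM (vertical axes, each starting at 0) of the 9 genes in every library, with 2 points per group and a line at the group mean. Pparg sat at 2.32 to 4.08 in the libraries labelled Ddx6-KO and at 14.0 to 44.0 in TOM, while Rxra was higher at day 2 in both lines and Nr1h2 stayed between 9.12 and 15.4 throughout.

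The paralog Ppard encodes PPARδ, a broadly expressed receptor linked to fatty acid oxidation. It lies on chromosome 17 (28232700 to 28301474, forward strand). Ppard was read at 2.87 and 8.14 FPKM in TOM day 0, 10.5 and 8.64 in TOM day 2, 7.58 and 9.41 in Ddx6-KO day 0, and 8.25 and 4.62 in Ddx6-KO day 2. The TOM day 0 library with the low value was the deeply sequenced one. None of its differences passed the test. They were 0.82 in TOM (adjusted p = 0.338) and -0.39 in Ddx6-KO (adjusted p = 0.61) from day 0 to day 2, and 0.67 at day 0 (adjusted p = 0.378) and -0.54 at day 2 (adjusted p = 0.397) for Ddx6-KO minus TOM. The 95% interval of the day 0 difference between lines was -0.31 to 1.65. Leaving out TOM day 0 library 1 or 2 moved the difference in TOM to 0.20 or 1.44 and the day 0 difference between lines to 0.05 or 1.29.

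Ppara, the PPAR of liver, heart and brown fat, lies on chromosome 15 (85734983 to 85802819, forward strand) and was at or near the limit of detection. It was read at 0.12 and 0 FPKM in TOM day 0, 0 and 0.339 in TOM day 2, 0 and 0.255 in Ddx6-KO day 0, and 0.206 and 0.121 in Ddx6-KO day 2. A single fragment of Ppara was worth about 0.0149 FPKM in the deepest library and 0.0549 to 0.21 FPKM in the others, so these values stand for 0 to 8 fragments. In the 3 libraries listed at 0, a count of 0 allows up to 3 fragments, about 0.165 to 0.381 FPKM. No library reached 1 FPKM, and Ppara was not tested.

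The share of Pparg in the summed FPKM of the 3 PPAR genes is a ratio within a library, which no scaling of the library can move. It was 86.7% and 63.3% in TOM day 0, 76.7% and 83.0% in TOM day 2, 28.2% and 29.7% in Ddx6-KO day 0, and 27.2% and 32.8% in Ddx6-KO day 2. Pparg was therefore the most abundant PPAR transcript in every TOM library, and Ppard was the most abundant in every library labelled Ddx6-KO, at 65.5% to 71.8% of the sum. The sum itself was 22.1 to 22.6 FPKM in TOM day 0, 45 to 53 in TOM day 2 and 7.06 to 13.7 in the 4 libraries labelled Ddx6-KO.

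**Figure D2:**
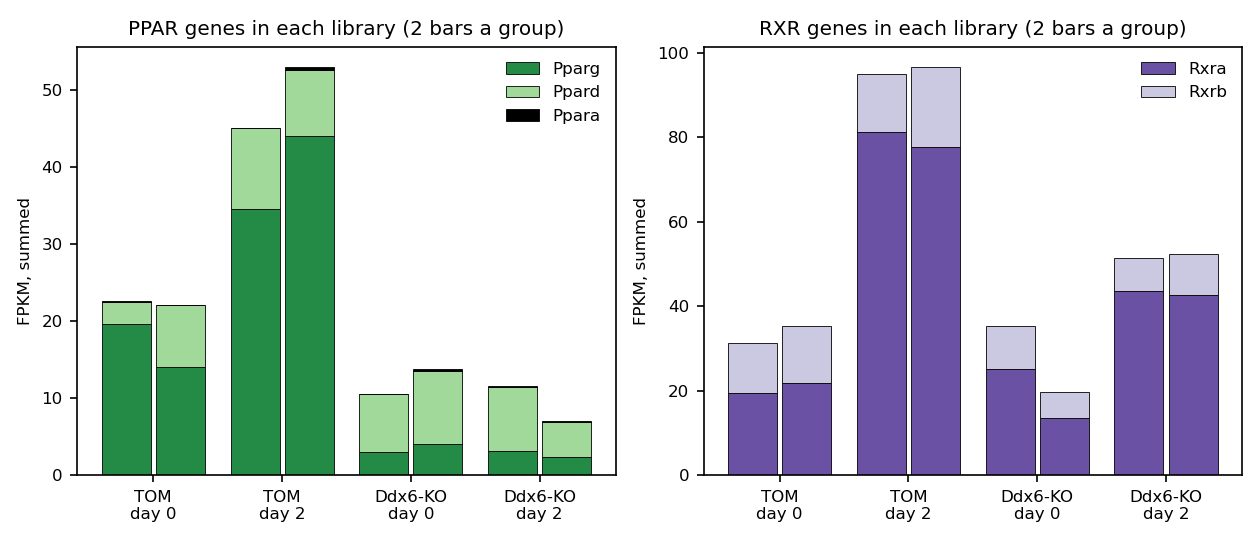
FPKM of the 3 PPAR genes (left) and of Rxra and Rxrb (right), stacked in every library, with 2 bars per group and axes from 0. The PPAR sum reached 45 and 53 in TOM day 2 against 11.6 and 7.06 in Ddx6-KO day 2, where most of it was Ppard, while the RXR sum was higher at day 2 than at day 0 in both lines.

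Rxra encodes RXRα, the main heterodimer partner of PPARγ in fat cells, and lies on the forward strand of chromosome 2 (27676440 to 27762957). Of its 2 RefSeq promoter windows, the downstream one (250 bases, GRCm38.p6, chr2:27709042-27709291) is shown because Rxra changed in both lines and because this window holds 2 copies of AGGTCA, the core element that RXR heterodimers and other nuclear receptors recognise. The capitals mark the matches on either strand, at 87 and 48 bases before the start at 27709292, and no base lies in an annotated exon.
Rxra promoter of the downstream start: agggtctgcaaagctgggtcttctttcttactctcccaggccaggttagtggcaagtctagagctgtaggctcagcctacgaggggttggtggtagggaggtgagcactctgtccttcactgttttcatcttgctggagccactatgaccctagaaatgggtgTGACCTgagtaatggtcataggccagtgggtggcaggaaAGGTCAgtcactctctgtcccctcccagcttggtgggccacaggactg
At least 1 AGGTCA was found in 14.0% of the 32851 windows and in 3 of the 15 windows of the 9 genes. The share of windows with 2 copies was not counted, and the upstream window of Rxra held none. Direct repeats of AGGTCA spaced by 1 base, the arrangement known for PPAR with RXR, or by 4 bases, that known for LXR with RXR, were in none of the 15, and in 0.0335% and 0.0152% of all windows.

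Of the 8 tested members, Rxra had the largest day 2 minus day 0 difference in both lines. It was read at 19.5 and 21.7 FPKM in TOM day 0 and at 81.2 and 77.8 in TOM day 2. The libraries labelled Ddx6-KO held 25.2 and 13.4 FPKM at day 0 and 43.5 and 42.6 at day 2. The days did not overlap in either line, the day 0 libraries of the lines overlapped, and at day 2 both TOM libraries were above both libraries labelled Ddx6-KO. Rxra rose in TOM by 1.90 (standard error 0.26, adjusted p = 0.0051), a ratio of means of 3.87, and this call was made under all 21 alternatives (adjusted p 0.00216 to 0.0475).

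In Ddx6-KO Rxra rose by 1.18 (standard error 0.26, adjusted p = 0.0306), a ratio of means of 2.23. Left out singly, every library but Ddx6-KO day 0 library 1 took this call away, with adjusted p from 0.0537 to 0.118, as did 5 other settings (0.0557 to 0.16), and without Ddx6-KO day 0 library 2 the difference was 0.75. Between the lines Rxra differed by -0.15 at day 0 (95% interval -0.75 to 0.46, adjusted p = 0.783) and by -0.87 at day 2 (95% interval -1.48 to -0.26, adjusted p = 0.0557), the latter just outside the threshold. Leaving out either of the Ddx6-KO day 0 libraries brought the day 2 difference past the threshold, with adjusted p = 0.0172 and 0.0175. So did a pseudocount of 5 (0.0407), a filter of 5 FPKM (0.043), a fit to the day 2 libraries alone (0.0366) and leaving out small non-coding RNAs, where the difference was -1.36 (adjusted p = 0.0164). The change in Ddx6-KO minus that in TOM was -0.72 (adjusted p = 0.353).

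Rxrb encodes RXRβ, the ubiquitous RXR, and lies on chromosome 17 (34031812 to 34038399, forward strand). It was read at 11.7 and 13.5 FPKM in TOM day 0, 13.8 and 18.8 in TOM day 2, 10.1 and 6.19 in Ddx6-KO day 0, and 7.99 and 9.73 in Ddx6-KO day 2. Each TOM library was above each library labelled Ddx6-KO, with differences of -0.61 at day 0 (95% interval -1.21 to 0.00016, adjusted p = 0.192) and -0.80 at day 2 (95% interval -1.41 to -0.20, adjusted p = 0.0703) that did not pass. With small non-coding RNAs left out, the day 2 difference was -1.26 and passed (adjusted p = 0.0166). Among the RXR transcripts, Rxra made up 61.7% to 62.3% in TOM day 0 and 80.5% to 85.5% in TOM day 2, against 68.5% to 71.4% and 81.4% to 84.5% in Ddx6-KO. The ratio of Rxra to Pparg was 0.994 and 1.55 in TOM day 0, 2.35 and 1.77 in TOM day 2, 8.45 and 3.3 in Ddx6-KO day 0, and 13.7 and 18.4 in Ddx6-KO day 2. The ratio was lowest in the TOM day 0 libraries and highest in the Ddx6-KO day 2 libraries.

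Nr1h3 encodes LXRα, the LXR of liver, macrophages and fat, which is known to be induced in adipogenesis. It lies on the reverse strand of chromosome 2 (91184061 to 91202834) and overlaps Gm13783 on the same strand and the small nuclear RNA gene Gm23390, so its FPKM may hold reads of these. Nr1h3 was read at 1.52 and 1.47 FPKM in TOM day 0, 6.14 and 3.4 in TOM day 2, 0.828 and 1.97 in Ddx6-KO day 0, and 0.817 and 0.768 in Ddx6-KO day 2. It was highest in TOM day 2, and there both libraries were above all others. Only 5 of 8 libraries reached 1 FPKM, and the Ddx6-KO day 2 values stand for about 2 and 4 fragments.

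At day 2, Nr1h3 was lower in Ddx6-KO than in TOM by -1.65 (standard error 0.34, adjusted p = 0.018), a 6.02-fold ratio of means. The call was lost when either Ddx6-KO day 2 library or TOM day 2 library 1 was left out, with adjusted p from 0.0592 to 0.0983 and a difference of -1.30 in the last case, and in a fit to the day 2 libraries alone (adjusted p = 0.0758). From day 0 to day 2 the difference was 1.17 in TOM (95% interval 0.36 to 1.97, adjusted p = 0.0983) and -0.38 in Ddx6-KO (95% interval -1.18 to 0.43, adjusted p = 0.542), and these changes differed by -1.55 (adjusted p = 0.147). At day 0 the lines differed by -0.10 (adjusted p = 0.896).

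Nr1h2, which encodes the ubiquitous LXRβ, lies on the reverse strand of chromosome 7 (44549616 to 44553951) and had the smallest differences of the 8 tested members. It was read at 11.6 and 12.7 FPKM in TOM day 0, 9.12 and 15.4 in TOM day 2, 11 and 12.9 in Ddx6-KO day 0, and 15.1 and 10.3 in Ddx6-KO day 2. Its differences lay between -0.03 and 0.08 in all 5 comparisons, with a 95% interval of -0.66 to 0.63 at day 0 and of -0.58 to 0.71 at day 2 between the lines. Of the summed LXR FPKM, Nr1h3 made up 11.6% and 10.4% in TOM day 0, 40.2% and 18.1% in TOM day 2, 6.98% and 13.2% in Ddx6-KO day 0, and 5.13% and 6.96% in Ddx6-KO day 2.

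Ncor1 encodes the corepressor that bridges unliganded receptors to the histone deacetylase HDAC3. It lies on the reverse strand of chromosome 11 (62316426 to 62458541) and overlaps Ttc19, Pigl and the processed pseudogene Gm12276, all on the opposite strand. Ncor1 was read at 35.3 and 49.9 FPKM in TOM day 0, 54.0 and 49.9 in TOM day 2, 59.9 and 67.4 in Ddx6-KO day 0, and 77.4 and 59.5 in Ddx6-KO day 2. Every library labelled Ddx6-KO was above every TOM library. From day 0 to day 2 the difference was 0.30 in TOM (adjusted p = 0.494) and 0.09 in Ddx6-KO (adjusted p = 0.819). The differences between lines were 0.59 at day 0 (95% interval 0.11 to 1.07, adjusted p = 0.118) and 0.38 at day 2 (95% interval -0.10 to 0.86, adjusted p = 0.235), and neither passed.

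Med1 encodes the Mediator subunit that binds liganded nuclear receptors, PPARγ among them. It lies on the reverse strand of chromosome 11 (98152154 to 98193293), overlapping the processed pseudogene Gm11604. Med1 was read at 7.36 and 5.24 FPKM in TOM day 0, 12.8 and 7.22 in TOM day 2, 9.47 and 8.48 in Ddx6-KO day 0, and 8.75 and 13.3 in Ddx6-KO day 2. The days overlapped in both lines, and no difference passed, the closest being 0.46 for Ddx6-KO minus TOM at day 0 (95% interval -0.26 to 1.19, adjusted p = 0.409) and 0.56 for TOM day 2 minus day 0 (95% interval -0.17 to 1.29, adjusted p = 0.385).

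By comparison, 2 of the 8 tested members rose in TOM from day 0 to day 2, Rxra and Pparg, where 7.15% of all genes tested were called in either direction (3.4% higher, 3.74% lower). In Ddx6-KO 1 of 8 rose, Rxra, against 10.7% of all genes (4.8% higher, 5.85% lower). Ddx6-KO minus TOM gave 1 of 8 lower at day 0, Pparg, against 11.4% of all genes (6.55% higher, 4.81% lower), and 2 of 8 lower at day 2, Pparg and Nr1h3, against 18.9% (10.4% higher, 8.58% lower). The counts between the lines at day 0 and at day 2, and that in Ddx6-KO, are near the share of all genes. The difference of changes called 0 of 8 by limma, where 4.19% of all genes were called (2.02% higher, 2.17% lower). By limma 2 members, Pparg and Nr1h3, had an unadjusted p under 0.05. The 4.19% is for adjusted p, and no share of all genes was computed for the unadjusted cut, so these 2 cannot be set against it. The median log2 difference of the members was 0.69 in TOM (0.03 over all genes tested), 0.08 in Ddx6-KO (0.09), -0.06 between lines at day 0 (0.05), -0.67 at day 2 (0.11) and -0.52 for the difference of changes (0.04).

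Groups of 2 did not overlap for 6 of 8 members between the days in TOM, all higher at day 2. Over all genes 48.3% did not overlap there, in either direction. Of these 6 members only Rxra and Pparg passed the limma test, and Ncor1 read 49.9 FPKM on both sides at the printed digits. In Ddx6-KO 2 of 8 did not overlap, against 54.5%. Between the lines, 4 of 8 did not overlap at day 0, against 56.5%, and 6 of 8 at day 2, of which 5 were lower in Ddx6-KO, against 58.1%. An exact permutation test of 2 libraries against 2 cannot give a p below 0.333, so single genes were not tested that way. The comparisons share groups, and their values for a gene are not independent of each other.

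**Figure D3:**
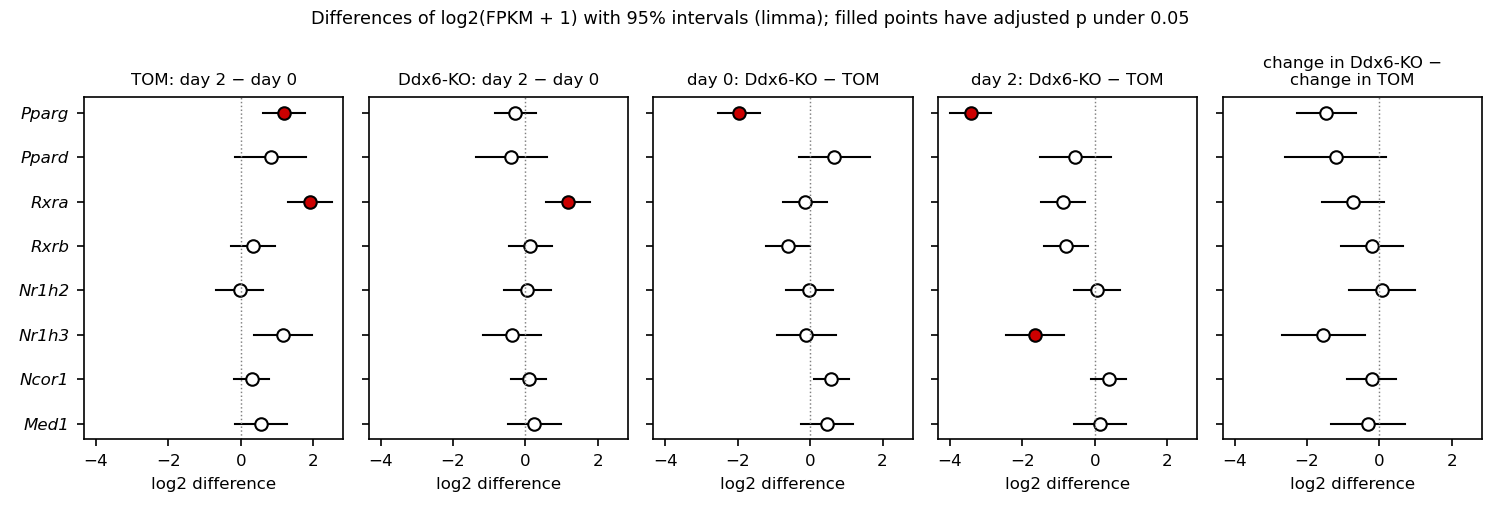
Difference of log2(FPKM + 1) (horizontal axes) with 95% intervals from limma for the 8 tested members in the 5 comparisons, with filled points where the adjusted p was under 0.05. Pparg was lower in Ddx6-KO at both days (-1.97 and -3.43), Rxra rose in both lines (1.90 and 1.18), and Nr1h3 was lower in Ddx6-KO at day 2 (-1.65).

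In order of mean level, TOM day 0 ran Ncor1 (42.6 FPKM), Rxra (20.6), Pparg (16.8), Rxrb (12.6), Nr1h2 (12.1), Med1 (6.3), Ppard (5.51), Nr1h3 (1.5) and Ppara (0.0598). The libraries of Rxra and Pparg overlapped there, as did those of Rxrb and Nr1h2 and those of Med1 and Ppard. In TOM day 2 Rxra (79.5 FPKM), Ncor1 (52.0) and Pparg (39.3) led in that order without overlap, and Pparg was above 92.8% of the genes tested. In Ddx6-KO the libraries of Med1, Ppard and Rxrb overlapped at day 0, and at day 2 so did those of each neighbouring pair from Nr1h2 to Ppard. Pparg there came, without overlap, after Ncor1, Rxra, Nr1h2, Med1, Rxrb and Ppard at both days, and was above 43.8% of the genes tested at day 0 and 36.3% at day 2. Nr1h3 and Ppara were the lowest of the 9 in all 4 groups.

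Of the genes known as PPARγ targets, which encode lipid storage and adipokine proteins, more were called in TOM than in Ddx6-KO over the 2 days. Of 30 listed, 29 were in the table and 23 were tested, while 6 stayed under 1 FPKM in every library. A gene could pass the filter through its TOM day 2 libraries alone, as Cidec did, so these counts may lean toward genes high there. In TOM 13 of 23 rose and 1 fell, with a median difference of 1.38 against 0.03 over all genes, and in Ddx6-KO 2 rose and 2 fell, with a median of 0.13 against 0.09, a split of 1 and 5 with each library scaled to an equal sum (TPM rescaling) and of 1 and 4 with small non-coding RNAs left out. Between the lines 3 were higher and 2 lower in Ddx6-KO at day 0 (1 and 2 with small RNAs left out), and 1 was higher and 14 lower at day 2, with a median of -1.84 against 0.11. The change differed for 10 of 23, 9 of them toward lower values in Ddx6-KO. Of all genes tested, 7.15% were called in TOM, 10.7% in Ddx6-KO, 11.4% between the lines at day 0 and 18.9% at day 2. For the difference of changes the share was 4.19%. The count at day 2 was 12 to 17 under all alternatives. In TOM it fell from 14 to 9 without TOM day 2 library 1, and for the difference of changes it fell from 10 to between 3 and 5 on leaving out any TOM library or either Ddx6-KO library of day 0. In Ddx6-KO it fell from 4 to 2 when either day 0 library or day 2 library 1 was left out, and at day 0 from 5 to 2 when either Ddx6-KO library was.

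Fabp4, the fatty acid-binding protein of adipocytes, stood at 17.5 and 21.1 FPKM in TOM day 0, 520 and 496 in TOM day 2, 27.5 and 26.6 in Ddx6-KO day 0, and 8.03 and 4.66 in Ddx6-KO day 2. It rose in TOM by 4.66 (adjusted p = 0.000117) and fell in Ddx6-KO by 1.97 (adjusted p = 0.00233), so that it moved in opposite directions from day 0 levels that did not differ by the test (0.48, adjusted p = 0.238). Acsl1, an acyl-CoA synthetase, was read at 9.1 and 9.32 FPKM in TOM day 0 and 107 and 117 in TOM day 2, against 7.54 and 8.31 and then 5.4 in both libraries in Ddx6-KO. Its changes differed by -3.95 (adjusted p = 0.000309). Cidec, a lipid droplet protein, was at 0.309 and 0.45 FPKM in TOM day 0 and 20.6 and 18.5 in TOM day 2, and in Ddx6-KO no library reached 1 FPKM (0 to 0.869).

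Other targets were apart before induction. Lpl, lipoprotein lipase, stood at 195 and 173 FPKM in TOM day 0 against 9.94 and 12.9 in Ddx6-KO, a difference of -3.91 (adjusted p = 0.000103), and was still lower at day 2, by -2.69 (adjusted p = 0.000183), although it had fallen in TOM by 1.08 to 83 and 89.1 FPKM. Plin4, which coats nascent lipid droplets, was at 13.2 to 17.0 FPKM in the 4 TOM libraries and at 0.281 to 1.08 in the 4 labelled Ddx6-KO, with differences of -3.22 (adjusted p = 0.000725) and -3.15 (adjusted p = 0.000746). Dgat2, an enzyme of triglyceride synthesis, went the other way at day 0, with 1.49 and 1.26 FPKM in TOM and 6.01 and 5.83 in Ddx6-KO (1.54, adjusted p = 0.00429). It then rose to 11.8 and 14.6 FPKM in TOM and fell to 2.89 and 3.01 in Ddx6-KO.

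Angptl4, a secreted inhibitor of lipoprotein lipase, was already higher in Ddx6-KO at day 0, by 0.99 (adjusted p = 0.0184), and rose in both lines. In TOM it rose by 2.28 (adjusted p = 0.000613), from 14.9 and 10.4 to 62.9 and 65.4 FPKM, and in Ddx6-KO by 0.97 (adjusted p = 0.021), from 24.0 and 27.5 to 47.4 and 55.3 FPKM, and the changes differed by -1.31 (adjusted p = 0.0423). Txnip, an arrestin that limits glucose uptake, was the target higher in Ddx6-KO at day 2 (225 and 212 FPKM against 109 and 124 in TOM), as it was at day 0.

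**Figure D4:**
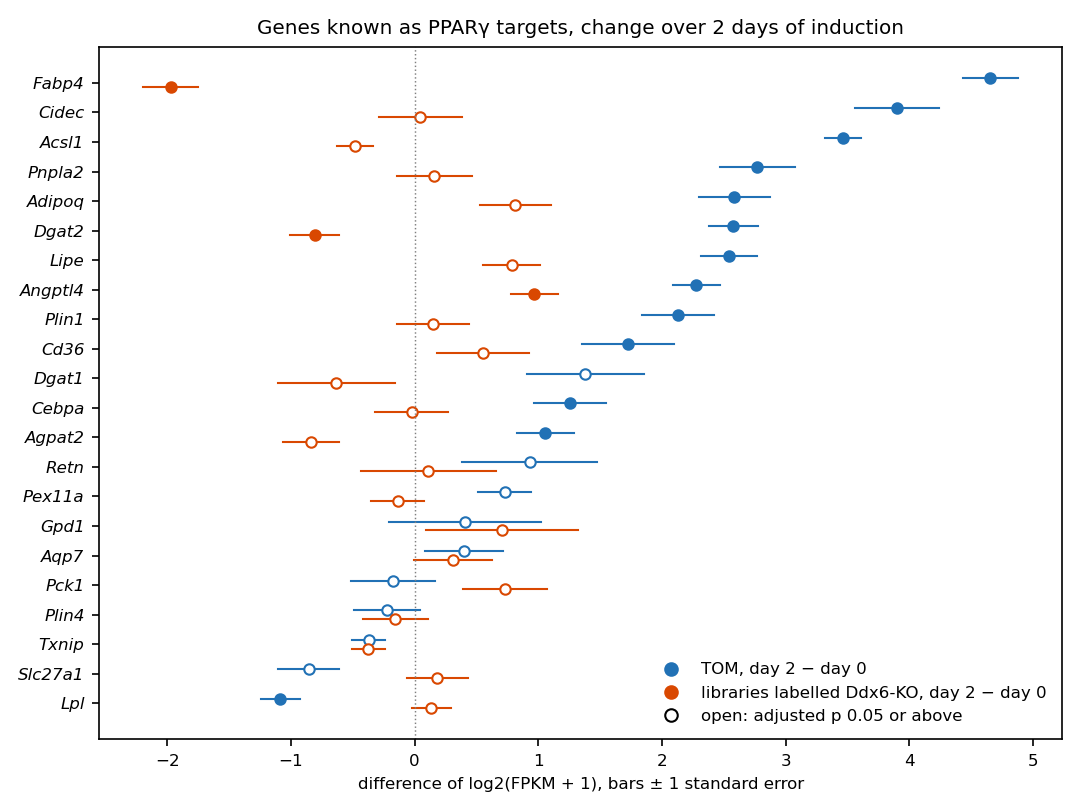
Change of log2(FPKM + 1) from day 0 to day 2 (horizontal axis, bars of 1 standard error) of 22 PPARγ target genes in TOM and in the libraries labelled Ddx6-KO, with open points where the adjusted p was 0.05 or above. Fabp4 ran from 4.66 in TOM to -1.97 in Ddx6-KO, and Angptl4 rose in both lines (2.28 in TOM, 0.97 in Ddx6-KO).

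The LXR target list, of which 17 of 21 genes were tested, had no common direction. In TOM 4 rose and 4 fell (2 and 4 with TPM rescaling), and in Ddx6-KO 2 rose and 3 fell (1 and 8 with TPM rescaling, 1 and 6 with small RNAs left out). Ddx6-KO minus TOM gave 5 higher and 2 lower at day 0 and 6 higher and 4 lower at day 2 (3 and 4 with small RNAs left out), and the difference of changes called 1 higher and 4 lower. The medians were -0.03, -0.22, 0.34, 0.04 and 0.15, in the order of these comparisons, beside 0.03, 0.09, 0.05, 0.11 and 0.04 over all genes. In the same order, 7.15%, 10.7%, 11.4%, 18.9% and 4.19% of all genes were called in either direction. Srebf1, the regulator of fatty acid synthesis, rose in TOM from 11.1 and 13.3 to 32.4 and 27.3 FPKM (1.22, adjusted p = 0.00519) and stood at 10.1 and 10.3 and then 7.94 and 7.96 in Ddx6-KO, lower than TOM at day 2 by -1.78 (adjusted p = 0.00101). Scd1, the stearoyl-CoA desaturase, was at 9.3 and 9.37 FPKM in TOM day 0 and 20.0 and 16.7 in TOM day 2, against 31.3 and 29.3 and then 8.32 and 8.5 in Ddx6-KO, where it fell by 1.73 (adjusted p = 0.00092). Apod, which encodes a lipocalin that carries small lipids, showed a crossed pattern, with 492 and 473 FPKM in TOM day 0, 18.3 and 21 in TOM day 2, 8.61 and 11.6 in Ddx6-KO day 0, and 467 and 424 in Ddx6-KO day 2. Abca1, the cholesterol efflux pump, rose in both lines, by 1.13 (adjusted p = 0.00267) and 0.69 (adjusted p = 0.0187). Leaving out single libraries took the list's count from 8 to 5 in TOM (either day 0 library or day 2 library 1), from 5 to 3 in Ddx6-KO (either day 0 library), from 7 to 4 at day 0 (Ddx6-KO day 0 library 1), from 10 to 6 at day 2 (TOM day 2 library 2) and from 5 to 2 or 3 for the difference (either Ddx6-KO day 0 or either TOM day 2 library).

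Genes of fatty acid oxidation known as PPARα or PPARδ targets (22 of 28 tested) gave 4 higher and 2 lower in TOM and 5 higher and 1 lower in Ddx6-KO over the 2 days, with medians of 0.26 and 0.04 against 0.03 and 0.09 over all genes. The Ddx6-KO split was 1 and 2 with TPM rescaling and 1 and 1 with small RNAs left out. Acadm, a medium-chain acyl-CoA dehydrogenase, rose from 19.8 and 20.8 to 147 and 111 FPKM in TOM (2.60, adjusted p = 0.000674) and from 34.4 and 26.4 to 76.3 and 54.8 in Ddx6-KO (1.08, adjusted p = 0.0246), and the changes differed by -1.52 (adjusted p = 0.0424). Cat, the peroxisomal catalase, did the reverse, with 20.6 and 20.0 and then 26.9 and 27.7 FPKM in TOM, 13.5 and 11.9 and then 55.1 and 48.6 in Ddx6-KO, and a difference of changes of 1.54 (adjusted p = 0.00851). Pdk4, a kinase that spares glucose and a classical PPARδ target, was higher in Ddx6-KO at both days, by 1.2 (adjusted p = 0.0198) and 1.30 (adjusted p = 0.011). Plin2, a lipid droplet coat protein, fell in both lines, by 1.25 (adjusted p = 0.00303) and 0.72 (adjusted p = 0.0263). Between the lines 2 were higher and 2 lower at day 0 (2 and 1 under either scaling), and 4 higher and 2 lower at day 2 (2 and 4 with small RNAs left out), with medians of 0.12 and 0.27 against 0.05 and 0.11. The shares of all genes called were 7.15% in TOM, 10.7% in Ddx6-KO, 11.4% between the lines at day 0 and 18.9% at day 2. The count of 6 in TOM was 3 when any TOM library was left out, and that of 6 in Ddx6-KO was 1 or 2 when any Ddx6-KO library was. At day 0 the count of 4 was 0 or 1 when any day 0 library was left out, and at day 2 the count of 6 was 2 and 3 when TOM day 2 library 1 or 2 was.

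Of the factors known to act upstream of Pparg, 24 of 25 were tested. None was called lower in Ddx6-KO at day 0, where 4.81% of all genes were, so this count is near the share of all genes. In TOM 9 rose and 0 fell, with a median of 0.10 against 0.03. In Ddx6-KO 7 rose and 1 fell, with a median of 0.52 against 0.09, a split of 3 and 3 with TPM rescaling and of 3 and 2 with small RNAs left out. Between the lines 5 were higher and 0 lower at day 0, with a median of -0.06 against 0.05, and 6 were higher and 4 lower at day 2, with a median of 0.29 against 0.11. Over all genes the shares higher and lower were 3.4% and 3.74% in TOM and 4.8% and 5.85% in Ddx6-KO. They were 6.55% and 4.81% between the lines at day 0, and 10.4% and 8.58% at day 2. The day 2 split of these factors was 3 and 4 with TPM rescaling and 1 and 5 with small RNAs left out. The count in Ddx6-KO fell from 8 to 3 and 4 when its day 0 library 1 or 2 was left out, and that at day 0 from 5 to 2 when either of these was and to 3 without TOM day 0 library 2. At day 2 the count of 10 was 5 or 6 when either day 0 library of Ddx6-KO, its day 2 library 1 or either TOM day 2 library was left out.

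Cebpd, which encodes C/EBPδ, stood at 34.1 and 29.0 FPKM in TOM day 0, 79.4 and 86.5 in TOM day 2, 172 and 168 in Ddx6-KO day 0, and 298 and 313 in Ddx6-KO day 2, and was higher in Ddx6-KO by 2.40 (adjusted p = 0.000174) and 1.87 (adjusted p = 0.000361). Cebpb, which encodes C/EBPβ, was at 35.5 and 41.4 FPKM in TOM day 0 and 67.9 and 67.3 in Ddx6-KO day 0 (0.80, adjusted p = 0.00974), and at 74.5 to 80.4 in all 4 day 2 libraries. Klf5, a Krüppel-like factor that acts at the Pparg promoter, was higher in Ddx6-KO at day 0, with 3.58 and 4.78 FPKM against 0.332 and 0.564 (1.83, adjusted p = 0.00594), and rose in both lines. At day 2 the lines differed in Cebpb by 0.06 (95% interval -0.25 to 0.36).

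Cebpa, which encodes C/EBPα and counts both as a factor upstream and as a target of PPARγ, was, like Pparg, highest in TOM day 2. It was read at 1.96 and 1.07 FPKM in TOM day 0, 5.25 and 4.6 in TOM day 2, 0.141 and 0.336 in Ddx6-KO day 0, and 0.271 and 0.159 in Ddx6-KO day 2. It rose in TOM by 1.26 (adjusted p = 0.0469) and was lower in Ddx6-KO at day 2 by -2.29 (adjusted p = 0.00308). The day 0 difference of -1.0 did not pass (adjusted p = 0.0725). Atf4, a stress-induced factor, fell in Ddx6-KO by 1.34 (adjusted p = 0.00137), and Nfib, a nuclear factor I gene, rose there by 1.43 (adjusted p = 0.0144), while neither passed in TOM.

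**Figure D5:**
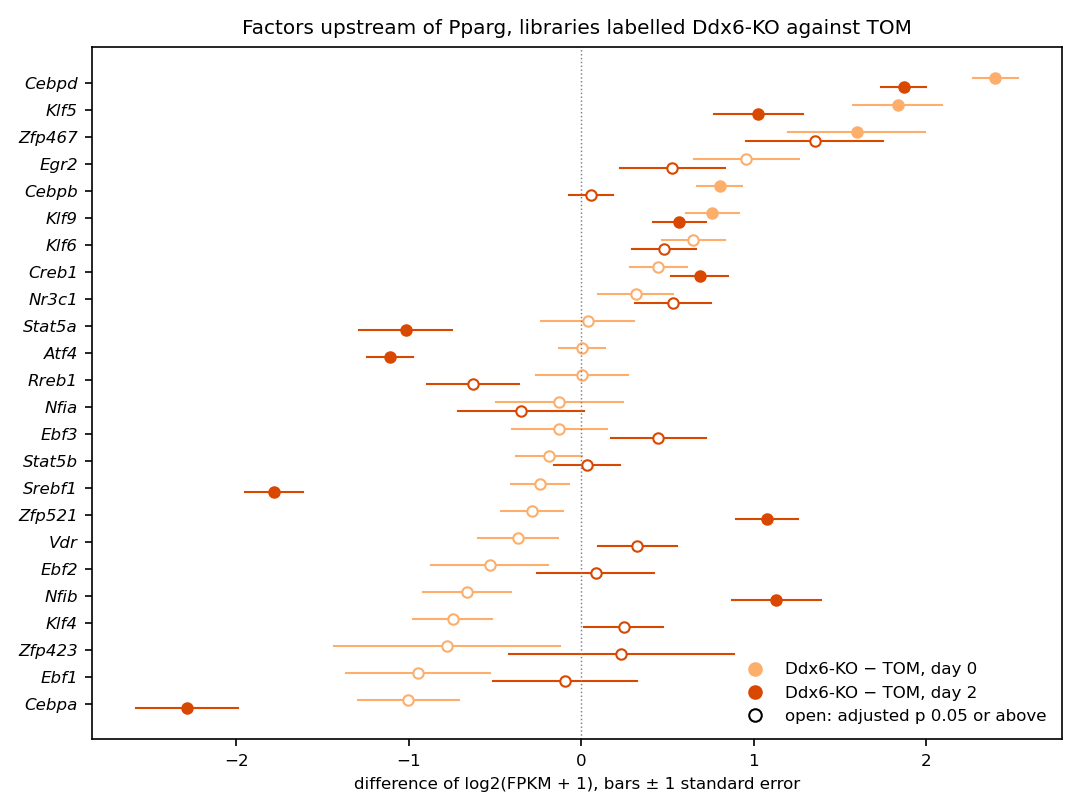
Ddx6-KO minus TOM difference of log2(FPKM + 1) (horizontal axis, bars of 1 standard error) of the 24 tested factors upstream of Pparg at day 0 and day 2, with open points where the adjusted p was 0.05 or above. Cebpd and Klf5 were higher in Ddx6-KO at both days, and Cebpa (-2.29), Srebf1 (-1.78), Atf4 (-1.11) and Stat5a were lower at day 2.

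Of the genes listed as holding Pparg expression or activity down, 24 of 25 were tested. In TOM 3 rose and 1 fell (2 and 2 with TPM rescaling, 3 and 2 with median-ratio scaling). In Ddx6-KO 2 rose and 3 fell (0 and 3 with TPM rescaling or small RNAs left out). Between the lines 2 were higher and 3 lower at day 0, and 6 higher and 4 lower at day 2 (2 and 4 with small RNAs left out). The medians were -0.32, 0.26, -0.04 and 0.53, against 0.03, 0.09, 0.05 and 0.11 over all genes. Calls in either direction over all genes, in this order, were 7.15%, 10.7%, 11.4% and 18.9%. Dlk1 (Pref-1), the secreted inhibitor of adipogenesis, was at 358 and 616 FPKM in TOM day 0, 167 and 175 in TOM day 2, 70.3 and 57.0 in Ddx6-KO day 0, and 27.9 and 13.5 in Ddx6-KO day 2. It was lower in the libraries labelled Ddx6-KO by -2.87 (adjusted p = 0.00383) at day 0 and -3.07 (adjusted p = 0.00222) at day 2. From day 0 to day 2 the Dlk1 difference was -1.65 in Ddx6-KO (adjusted p = 0.0294) and -1.45 in TOM (adjusted p = 0.0569), the latter just outside the threshold. Smad3, which carries TGFβ signals, was higher in Ddx6-KO at day 2, with 31.3 and 23.4 FPKM against 9.92 and 8.2 (1.49, adjusted p = 0.00505). Zfp521, a zinc finger inhibitor that is also in the upstream list, stood at 8.85 and 9.52 FPKM there against 3.87 and 3.8 (1.07, adjusted p = 0.00836). The DNA-binding inhibitor Id2 rose in TOM from 1.19 and 0.791 to 10.6 and 9.24 FPKM (2.46, adjusted p = 0.00322). At day 2 it was lower in Ddx6-KO than in TOM by -1.41 (adjusted p = 0.019), and whether it holds Pparg down in these cells was not tested. The list's count of 10 at day 2 was 4 when Ddx6-KO day 2 library 1 or either TOM day 2 library was left out, and its count of 5 at day 0 was 0 to 2 when any day 0 library was. Its count of 4 in TOM was 2 or 7 when a day 2 library of TOM or of Ddx6-KO was left out, and its count of 5 in Ddx6-KO was 1 when either of its day 0 libraries was and 3 without its day 2 library 2 or a TOM day 2 library.

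Most of the other coregulators of nuclear receptors did not pass the test. Of 26 listed, 23 were tested, with 1 higher in TOM (Nrip1) and 2 higher in Ddx6-KO (Nrip1 and Ppargc1a) over the 2 days. Between the lines 2 were higher (Wwtr1 and Hdac3) and 1 lower (Ppargc1a) in Ddx6-KO at day 0, and 5 were higher at day 2 (these 3, Ncoa3 and Nrip1). With small RNAs left out these splits were 0 and 1 and 2 and 1. Over all genes 7.15% were called in TOM, 10.7% in Ddx6-KO, 11.4% between the lines at day 0 and 18.9% at day 2. The coregulator counts of the main fit are near these shares. The count of 3 at day 0 was 0 when either Ddx6-KO day 0 library was left out and 1 without any day 2 library, and the count of 5 at day 2 was 0 without Ddx6-KO day 2 library 1 or TOM day 2 library 2, 1 without Ddx6-KO day 2 library 2 and 3 without TOM day 2 library 1. Ppargc1a, which encodes the coactivator PGC-1α, stood at 3.45 and 10.2 FPKM in TOM day 0, 2.21 and 1.56 in TOM day 2, 1.57 and 1.08 in Ddx6-KO day 0, and 12.2 and 12.9 in Ddx6-KO day 2. It rose in Ddx6-KO by 2.55 (adjusted p = 0.00965) and the changes differed by 3.85 (adjusted p = 0.0138). Nrip1 (RIP140), a corepressor in fat cells, rose in both lines, from 2.77 and 4.7 to 20.1 and 19.9 FPKM in TOM and from 4.33 and 7.22 to 46.9 and 40 in Ddx6-KO. Hdac3, the deacetylase that works with NCoR1, was higher in Ddx6-KO by 0.91 (adjusted p = 0.0315) and 0.92 (adjusted p = 0.022), and Ncoa3, a p160 coactivator, by 1.71 at day 2 (adjusted p = 0.0125).

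In the rest of the Mediator complex few genes passed. All 31 other subunits and kinase module genes were tested, and 1 was called in each comparison between days or lines. Beside this, 7.15% of all genes were called in TOM, 10.7% in Ddx6-KO, 11.4% between the lines at day 0 and 18.9% at day 2. None of the 31 was called for the difference of changes by limma. There 1 had an unadjusted p under 0.05, a cut for which no share of all genes was computed. Med13l, a kinase module subunit, rose from 7.59 and 14.5 to 48.5 and 36.0 FPKM in TOM (1.89, adjusted p = 0.00833) and from 18.2 and 18.0 to 57.3 and 46.3 in Ddx6-KO (1.46, adjusted p = 0.0213). Med23 was lower in Ddx6-KO at day 0 by -1.29 (adjusted p = 0.0123), with 2.6 and 2.08 FPKM against 7.38 and 6.88, and Med19 at day 2 by -0.72 (adjusted p = 0.048). With TPM rescaling or small RNAs left out, 0 subunits rose and 3 fell in Ddx6-KO. The call in TOM was lost without TOM day 2 library 1, that in Ddx6-KO without any of its libraries, that at day 0 without either Ddx6-KO library or TOM library 1, and that at day 2 without any library but Ddx6-KO day 2 library 2, and at most 3 were called on leaving out 1 library.

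Similar patterns across the 8 libraries were sought among 6913 tested protein-coding genes with a mean of at least 5 FPKM. Non-coding genes and those with Gm, Rik, pseudogene or identifier names were left out. The genes most like Pparg were Eef2, Tfdp1, Txndc5, Rpl6 and Mthfd1 (Pearson's r of log2(FPKM + 1) from 0.987 to 0.989), a description over 4 groups of 2 with no test. Eef2, the translation elongation factor, stood at 430 and 369 FPKM in TOM day 0, 534 and 554 in TOM day 2, 229 and 213 in Ddx6-KO day 0, and 229 and 221 in Ddx6-KO day 2. Those most like Rxra were Echdc2, Zhx1, St3gal1, Fam193b and Tgfbr2 (r from 0.968 to 0.991). Echdc2 was at 10.2 and 10.5 FPKM in TOM day 0, 25.8 and 23.1 in TOM day 2, 10.8 and 7.51 in Ddx6-KO day 0, and 14.6 and 15.5 in Ddx6-KO day 2.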

How the data were processed

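Total RNA of 8 libraries was sequenced with a stranded total RNA kit. The deposited values are FPKM per gene, which the authors computed with Cufflinks 2.2.1 after TopHat2 2.1.0 alignment to GRCm38/mm10, with bcl2fastq and FastQC 0.11.2 named in the submitters' processing notes. The sources used here do not name the annotation release. Symbols came from GENCODE M21 for 45139 of 46073 identifiers. No reads or counts were used. Columns named each group, and libraries 1 and 2 follow the column order, since column numbers and replicate numbers in the labels match only in part.

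The log2(FPKM + 1) values of the 15811 genes that reached 1 FPKM in 2 or more libraries were fitted with limma 3.58.1 (R 4.3.3), with 1 mean per group and a variance trend, for 5 comparisons. P-values were adjusted by Benjamini-Hochberg within a comparison, with a threshold of 0.05, and every adjusted p is from limma. A gene could pass the filter through the 2 libraries of 1 group, so the counts and medians of a list may lean toward genes high in some group. The fit was tested on simulated data. The members and lists were chosen with earlier results of these data known. The text names the 9 members, Ddx6, up to 4 genes per list and comparison with the smallest p, and the 5 genes most correlated with Pparg and with Rxra, and their values in other comparisons. Nrip1 at day 2 and Stat5a in a plot were named as further calls of their lists after their values were seen, as were Bglap and Bglap2. For 1 gene of the PPARγ target list, which stays in the counts, values are not reported here. Promoter windows are RefSeq, GRCm38.p6, and all 9 members matched.

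Depth was estimated from the spacing of low values, of which 86.3% to 91.4% lay within 0.1 of a whole fragment, so fragment numbers are approximate and floors cover counting error only. Alternatives were other pseudocounts, filters, scalings, variance models, thresholds and a replicate block, a fit to the libraries of a comparison alone, and leaving out each library.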

Additional observations from a re-analysis of the deposited data

How the results depend on the processing

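Over the members and comparisons, 827 single-gene values were recomputed under the alternatives, of which 786 stayed on their side of the threshold, 27 were no longer past it and 14 passed in addition. The sign changed for 39 of the 827, 19 of them of Nr1h2, and 0 of these were past the threshold under either setting. The number of members called was 1 under every alternative for Ddx6-KO minus TOM at day 0. For TOM day 2 minus day 0 it moved from 2 to 1 with no filter on low values, with TPM rescaling, with no variance trend, with a replicate block by column number and when only the comparison's own libraries were fitted, and it was 1 to 2 leaving out 1 library. For the same change in Ddx6-KO it moved from 1 to 0 with no filter, TPM rescaling, small non-coding RNAs left out, no variance trend and the fit to its own libraries, and it was 0 to 1 leaving out 1 library. At day 2 it moved from 2 to 4, with Rxra and Rxrb added, with small non-coding RNAs left out and at a threshold of 0.1, and it was 1 to 3 leaving out 1 library. For the difference of changes it moved from 0 to 1, Pparg, with a pseudocount of 5, a filter of 5 FPKM, small non-coding RNAs left out and a threshold of 0.1. The cause was not tested. Deviations of libraries with the same column number were close to uncorrelated between groups (-0.0958 to 0.0666). This cannot show whether libraries were paired, since counting error can hide a shared deviation. The replicate block took 1 member call away, Pparg in TOM (adjusted p = 0.0583), and no other. TPM rescaling moved the all-gene median difference to -0.14 in TOM, where it was 0.03, and to -0.19 in Ddx6-KO, where it was 0.09, and leaving out small non-coding RNAs moved it to -0.24 in Ddx6-KO, from 0.11 to -0.25 at day 2 and from 0.04 to -0.35 for the difference of changes. The split of all calls, higher and lower, was 538 and 592 in TOM and became 285 and 726, and in Ddx6-KO it was 759 and 925 and became 357 and 1917, with TPM rescaling, and with small RNAs left out to 280 and 1539 in Ddx6-KO, from 1638 and 1357 to 631 and 2561 at day 2 and from 320 and 343 to 127 and 494 for the difference of changes. TPM rescaling gave 1019 and 1419 at day 2 and 175 and 322 for the difference. With about 1.4 to 5.33 M fragments in 7 libraries, genes under about 1 FPKM rest on few fragments.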

Other observations

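Of the other 42 nuclear receptor genes, 22 were tested and 15 stayed under 1 FPKM in every library. In TOM 2 rose and 2 fell, in Ddx6-KO 1 rose and 1 fell, and Ddx6-KO minus TOM gave 0 higher and 1 lower, Rarg, at day 0 and 3 higher and 2 lower at day 2. In these comparisons 7.15%, 10.7%, 11.4% and 18.9% of all genes were called in either direction. Vdr, the vitamin D receptor and an RXR partner, rose in both lines, from 4.39 and 6.68 to 22.4 and 17.1 FPKM in TOM (1.68, adjusted p = 0.00536 by limma) and from 4.37 and 3.65 to 26.2 and 23.5 in Ddx6-KO (2.37, adjusted p = 0.00127 by limma). Rara, the retinoic acid receptor alpha, rose in TOM from 7.96 and 10.1 to 23.7 and 20.0 FPKM (1.19, adjusted p = 0.0111 by limma), while Rarg fell there by 0.97 (adjusted p = 0.0317), from 22.0 and 26.7 to 11.5 and 12.3 FPKM. The clock repressor Nr1d2 fell in TOM by 1.58 (adjusted p = 0.0103), from 8.52 and 9.28 to 1.72 and 3.03 FPKM. At day 2 its relative Nr1d1 was higher in the libraries labelled Ddx6-KO, with 5.76 and 5.68 FPKM against 0.793 and 1.58 (1.64, adjusted p = 0.0173), as was the mineralocorticoid receptor Nr3c2, with 6.2 and 8.47 against 1.65 and 0.851 (1.90, adjusted p = 0.00402). Nr2f6, an orphan receptor, was lower, with 5.18 and 3.84 FPKM against 14.8 and 15 (-1.54, adjusted p = 0.0141). None of the 22 passed for the difference of changes by limma. There 4 had an unadjusted p under 0.05, a cut for which no share of all genes was computed. Leaving out TOM day 0 library 1 or 2 or TOM day 2 library 1 lowered the 4 calls in TOM to 1 or 2, any day 2 library the 5 calls at day 2 to 2, and any library the call at day 0 to 0. In Ddx6-KO the 2 calls became 1 without either of its day 0 libraries, its day 2 library 2 or either TOM day 2 library.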
